A study of Mus musculus with 12 samples.

Results

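Bone morphogenetic protein (BMP) ligands and the secreted proteins that act on them were followed in stromal cells cultured from mouse small intestine. These 9 genes were taken by symbol from the 23329 genes listed for every library, whatever their level. They comprised 4 ligands (Bmp2, Bmp4, Bmp5 and Bmp7), 4 secreted antagonists (Grem1, Nog, Chrd and Chrdl1) and Bmp1, which in spite of its name encodes a protease that cleaves chordin and procollagens and is not a BMP ligand. BMP ligands bind pairs of type I and type II receptor kinases, which phosphorylate the receptor SMADs, and these enter the nucleus with SMAD4 and switch on genes such as the Id family. Gremlin 1, noggin, chordin and chordin-like 1 bind ligands outside the cell and keep them from the receptors. In the intestine, BMP ligands made by mesenchyme near the villi and antagonists made near the crypt base are known for setting where epithelial cells proliferate and differentiate.

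The study sequenced mRNA of primary intestinal stromal cells from C57BL6/J mice, from E14.5 embryos or adults, kept in culture to passage 2 to 3. Both stages were exposed for 6 h to lipopolysaccharide (LPS) of Escherichia coli at 10 µg/µl, as the labels give the dose, or to PBS as vehicle, and the comparisons asked how stage and LPS set the transcriptome. Each of the 4 groups (adult PBS, adult LPS, embryonic PBS and embryonic LPS) held 3 libraries. The 3 cultures of a stage came from 3 adult mice, or from 6 pooled embryos per culture, and the PBS and LPS libraries that bore the same number within a stage varied together and were treated as 1 culture. Adult intestine was scraped free of villi and embryonic intestine was cut up whole before digestion, so stage and dissection cannot be told apart, and expansion in culture was common to all groups.

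The files gave 18850224 to 32672370 gene counts per library. The cells are labelled intestinal myofibroblasts, and Acta2, Myh11 and Col1a1, which mark contractile and collagen-making stroma, were high in all 12 libraries, with Acta2 at 6930 to 14887 CPM (read counts scaled to a common library total after TMM normalization). The 6 endothelial markers summed to 1706 and 1780 CPM in the LPS and PBS libraries of adult culture 2, against 9.53 to 376 CPM in the other 10 libraries. Embryonic culture 2 was set apart by mesothelial markers (649 and 735 CPM, against 140 to 152 CPM in the other embryonic libraries), and culture 2 of each stage held the least of the 8 stromal markers (11133 to 12436 CPM, against 19893 to 26910 CPM). The 11 macrophage markers measured summed to 16.0 to 202 CPM in adult and 173 to 2529 CPM in embryonic libraries. No gene of these marker lists was at 0 in all libraries. LPS was read from 5 genes known to respond to it, Cxcl1, Ccl2, Nfkbia, Il6 and Saa3. All 5 rose in embryonic cells, and Cxcl1, Ccl2 and Nfkbia rose in adult cells (log2 fold change of Cxcl1 11.53 ± 0.55 (SE) in embryonic and 10.20 ± 0.51 in adult cells, adjusted p = 1.35e-05 and 1.89e-05, edgeR). In adult cells Il6 (3.32 ± 0.86, adjusted p = 0.175) and Saa3 (2.06 ± 0.94, adjusted p = 0.907) were not called, and with culture as a term both passed (adjusted p = 0.0150 and 0.0161).

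Of the 9 genes, Bmp1, Bmp2, Bmp4, Grem1, Nog and Chrd passed the filter of more than 0.5 CPM in all libraries of at least 1 group and were tested among 13038 genes. Chrdl1, Bmp7 and Bmp5 did not pass and are described by their values. Divided by the summed exon length of each gene, the order of the levels was the same at its top in 3 groups, with Bmp4 at the head, then Bmp1, Grem1 and Nog. In adult PBS libraries Bmp4 stood at 110.2 ± 73.2 CPM per kb (SD, n = 3), Bmp1 at 25.8 ± 5.56, Grem1 at 22.4 ± 2.37 and Nog at 8.11 ± 6.56. In embryonic LPS libraries Bmp1 (41.5 ± 13.5 CPM per kb) and Bmp4 (40.7 ± 16.5) were level within their spread. Bmp2, Chrd and Chrdl1 lay between 0.143 and 1.40 CPM per kb in every group, and Bmp5 and Bmp7 at 0.0447 or less. Adult PBS means of Bmp1 and Grem1 differed by less than the SD of Bmp1 and more than that of Grem1, and embryonic PBS means of Grem1 (18.4 ± 17.4 CPM per kb) and Nog (14.7 ± 1.92) by less than the SD of Grem1 and more than that of Nog.

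**Figure D1:**
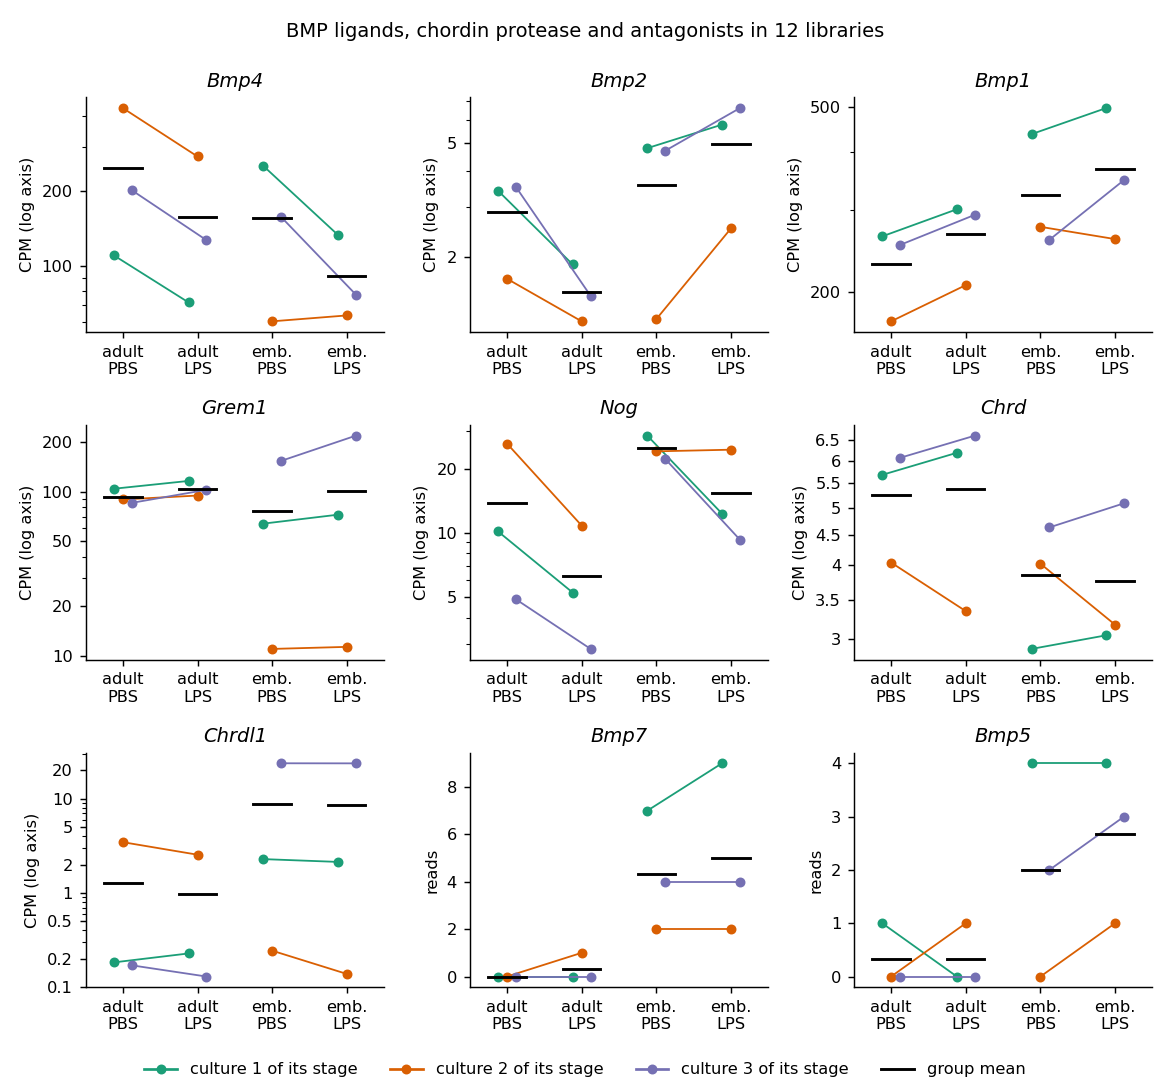
Levels of the 9 genes in the 12 libraries. Each panel is 1 gene, with CPM on a log axis (reads for Bmp7 and Bmp5), points for libraries, lines joining the PBS and LPS libraries of 1 culture and black bars for group means of 3 libraries. The lines of Bmp4 and Nog slope down in 5 of 6 cultures, those of Bmp2 down in the 3 adult and up in the 3 embryonic cultures, and embryonic culture 2 holds the lowest Grem1 (11.03 and 11.4 CPM).

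Bmp4, a ligand that mesenchymal cells of the villus and muscle layers are known to make, was the most abundant of the 4 ligands. In adult cultures 1, 2 and 3 it stood at 111, 430.3 and 202 CPM with PBS and at 71.8, 276 and 127 CPM with LPS. In embryonic cultures 1, 2 and 3 it stood at 253, 60.3 and 158 CPM with PBS and at 134, 63.7 and 77.2 CPM with LPS. The stages overlapped, since the highest level was in adult culture 2 and the lowest in embryonic culture 2, and within adult cells the highest PBS library was 3.89 times the lowest. The log2 fold change of embryonic over adult was -0.66 ± 0.65 with PBS (adjusted p = 0.667) and -0.79 ± 0.65 with LPS (adjusted p = 0.539), and neither passed the test.

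Within cultures the Bmp4 values lay closer together. LPS libraries held 64.8%, 64.0% and 63.1% of the PBS level in adult cultures 1, 2 and 3, a span of under 2 percentage points, and 52.9%, 105.6% and 48.9% in embryonic cultures 1, 2 and 3. Bmp4 was thus lower with LPS in 5 of 6 cultures, as 24.1% of tested genes were in at least 5, and level in embryonic culture 2, the culture whose PBS level was lowest. In that culture the 7 myofibroblast and smooth muscle markers summed to 26940 CPM with PBS and 14927 CPM with LPS, and the macrophage markers to 418 and 957 CPM, and the part of this shift in Bmp4 and Nog was not tested. In the fit of the 4 groups alone the difference was not called in either stage (log2 fold change -0.78 ± 0.65 in embryonic and -0.65 ± 0.65 in adult cells, adjusted p = 0.881 and 1). With culture as a term it was not called in either stage alone (-0.63 ± 0.19 and -0.64 ± 0.19, adjusted p = 0.0690 and 0.100). The mean LPS effect over both stages, a contrast added after the values were seen, was -0.64 ± 0.13 with culture as a term (adjusted p = 0.0145) and passed, where without that term it did not (-0.71 ± 0.46, adjusted p = 0.661). Without adult culture 1 or embryonic culture 1 its adjusted p was 0.0609 and 0.0517, at log2 fold changes of -0.64 and -0.56, and without embryonic culture 2 it was -0.81 ± 0.04 (adjusted p = 3.11e-05).

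Bmp4 lies on chromosome 14 of GRCm38.p6, minus strand, at chr14:46383525-46390669. Its promoter is shown because Bmp4 passed as lower with LPS over both stages with culture as a term. The promoter of Grem1 is shown beside it, as Grem1 was the tested member with the widest spread between cultures of a group. The 250 bases before the RefSeq start are chr14:46390670-46390919 (minus strand) for Bmp4 and chr2:113758649-113758898 (minus strand) for Grem1, and 4 of the 9 genes had a promoter in the RefSeq table of that build. Capitals mark matches to 3 sequences searched on both strands, with no overlap between matches: a SMAD palindrome (GGCGCC, in 9.59% of the same windows of all 32851 promoters), a TATA box (TATAAA, 12.4%) and a CCAAT box (CCAAT, 33.8%).
Bmp4: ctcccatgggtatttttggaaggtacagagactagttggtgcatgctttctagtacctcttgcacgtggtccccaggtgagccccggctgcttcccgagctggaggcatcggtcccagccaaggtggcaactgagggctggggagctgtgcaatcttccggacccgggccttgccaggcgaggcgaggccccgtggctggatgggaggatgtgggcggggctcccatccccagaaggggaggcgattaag
Grem1: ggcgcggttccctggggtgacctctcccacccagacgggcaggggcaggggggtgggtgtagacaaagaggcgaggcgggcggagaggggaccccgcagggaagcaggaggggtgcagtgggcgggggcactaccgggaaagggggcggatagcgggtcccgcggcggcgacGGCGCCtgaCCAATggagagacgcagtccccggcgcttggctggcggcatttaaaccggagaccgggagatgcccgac
The Bmp4 window held no match to any of the 3. The Grem1 window, 72% G and C, held the SMAD palindrome 78 bases and the CCAAT box 69 bases before the start. The Bmp5 window held no match, and that of Chrd lies inside the annotated gene and is not described. These are matches of letters only, and no binding was measured.

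Bmp2, a ligand close to Bmp4 in sequence that signals through the same receptors, was low, and its LPS libraries lay below PBS in adult and above PBS in embryonic cultures, with no difference called. Adult cultures 1, 2 and 3 held 3.41, 1.68 and 3.51 CPM with PBS and 1.89, 1.20 and 1.47 CPM with LPS. Embryonic cultures 1, 2 and 3 held 4.79, 1.22 and 4.69 CPM with PBS and 5.78, 2.52 and 6.60 CPM with LPS. LPS libraries were thus lower in 3 of 3 adult cultures (55.4%, 71.1% and 41.8% of PBS) and higher in 3 of 3 embryonic cultures (121%, 207% and 141%). This pattern was met by 1.65% of the tested genes, and the reads behind it were few, 34 to 170 per library.

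The LPS groups of Bmp2 did not overlap, embryonic cells being higher, as 13.4% of tested genes were (11.8% were lower without overlap). No other tested member was separated between stages with LPS, and none with PBS, where 12.5% of genes were higher and 11.9% lower without overlap. The log2 fold change of embryonic over adult was 1.71 ± 0.55 with LPS (unadjusted p = 0.0108, adjusted p = 0.100) and 0.31 ± 0.53 with PBS (adjusted p = 0.827) in edgeR. The LPS value passed in DESeq2 (1.72 ± 0.56, adjusted p = 0.0248), without the PBS library of embryonic culture 2 (adjusted p = 0.0460) and without both libraries of that culture (2.02 ± 0.34, adjusted p = 0.0119). The interaction of stage and LPS was 1.40 ± 0.76 without culture as a term (adjusted p = 1.00) and 1.44 ± 0.31 with it (unadjusted p = 0.00173, adjusted p = 0.124), and passed in neither. By stage, with culture as a term, the LPS effect was 0.56 ± 0.21 in embryonic cells (adjusted p = 0.129) and -0.88 ± 0.23 in adult cells (adjusted p = 0.0723).

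Bmp7 and Bmp5, ligands of the same subgroup of the family, were at the limit of detection. Bmp7 had 1 read in the 6 adult libraries together, of 164038580 gene counts, and 28 reads in the 6 embryonic libraries, of 182638837. The embryonic libraries held 7, 2 and 4 reads with PBS and 9, 2 and 4 reads with LPS in cultures 1, 2 and 3. Of these, 4 were above 3 reads, the number that a true level of 0.0896 to 0.116 CPM would give at the embryonic depths. Fitted without the filter on low values, the stage difference of Bmp7 did not pass with PBS or with LPS (adjusted p = 0.111 and 0.13, edgeR). Bmp5 had 2 reads in adult libraries and 14 in embryonic ones, with 0 to 4 per library, and no fold is given for either gene.

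Bmp1, the chordin and procollagen protease, ranked first or second among members for its length. Adult cultures 1, 2 and 3 held 263, 173 and 252 CPM with PBS and 301, 207 and 293 CPM with LPS, and embryonic cultures 436, 276 and 258 CPM with PBS and 496, 259 and 348 CPM with LPS. Embryonic means were higher than adult means and the groups overlapped (log2 fold change 0.50 ± 0.29 with PBS and 0.46 ± 0.29 with LPS, adjusted p = 0.388 and 0.395). LPS libraries were higher in 5 of 6 cultures, at 114%, 119.6% and 116% of PBS in adult and 114%, 94.1% and 135% in embryonic cultures, and 24.7% of tested genes were higher in at least 5. Over both stages, with culture as a term, the difference was 0.20 ± 0.07 (adjusted p = 0.0817) and did not pass.

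Grem1, an antagonist of Bmp2 and Bmp4 that stromal cells around the crypt base are known to make, was even across adult cultures and uneven across embryonic ones. Adult cultures 1, 2 and 3 held 104, 89.5 and 85.4 CPM with PBS and 116, 94.6 and 102 CPM with LPS. Embryonic cultures 1, 2 and 3 held 63.8, 11.03 and 154 CPM with PBS and 72.3, 11.4 and 219 CPM with LPS. The highest library was 1.22 times the lowest among adult PBS libraries and 13.9 times among embryonic PBS libraries, so adult values lay inside the embryonic range. The log2 fold change between stages was -0.29 ± 0.93 with PBS (adjusted p = 0.920), and without embryonic culture 2 it was 0.22 (adjusted p = 0.826).

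Grem1 was higher with LPS in 6 of 6 cultures, as 13% of tested genes were. The LPS libraries held 112%, 106% and 120.0% of PBS in adult cultures 1, 2 and 3 and 113%, 103% and 142% in embryonic cultures. Over both stages with culture as a term the difference was 0.21 ± 0.07 (adjusted p = 0.0663) and did not pass. Without embryonic culture 2 it was 0.26 ± 0.06 and passed (adjusted p = 0.0283).

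Nog encodes noggin, which binds Bmp2 and Bmp4 tightly. Adult cultures 1, 2 and 3 held 10.1, 26.2 and 4.87 CPM with PBS and 5.24, 10.8 and 2.85 CPM with LPS, and embryonic cultures 28.5, 24.1 and 22.2 CPM with PBS and 12.3, 24.5 and 9.27 CPM with LPS. Embryonic PBS libraries were close together and at the upper end of the adult range, with only adult culture 2 between them. The stage difference was 0.86 ± 0.62 with PBS and 1.28 ± 0.63 with LPS (log2, adjusted p = 0.515 and 0.272). The same 5 cultures in which Bmp4 was lower with LPS held less Nog, at 51.7%, 41.2% and 58.5% of PBS in adult cultures and 43.1% and 41.8% in embryonic cultures 1 and 3, while embryonic culture 2 was at 101.8%.

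The LPS difference of Nog was not called in either stage without culture as a term (-0.70 ± 0.62 in embryonic and -1.12 ± 0.63 in adult cells, adjusted p = 0.911 and 1) or with it (-0.81 ± 0.24 and -1.03 ± 0.26, adjusted p = 0.0721 and 0.0660). Over both stages, with culture as a term, Nog fell by 0.92 ± 0.18 on the log2 scale (adjusted p = 0.0111), and it passed without each culture in turn, with adjusted p from 0.000235 to 0.0492. Without that term it did not pass (-0.91 ± 0.44, adjusted p = 0.447). In edgeR with culture as a term, Bmp4 and its antagonist Nog thus passed as lower over both stages and in neither stage alone. The antagonist Grem1 did not pass. Neither Bmp4 nor Nog was lower in embryonic culture 2. The Bmp4 call was lost without adult culture 1 or embryonic culture 1, and the comparison over both stages was added after the values were seen.

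Chrd, which encodes the antagonist chordin that Bmp1 cleaves, was low and near level in all groups. Adult cultures 1, 2 and 3 held 5.68, 4.04 and 6.06 CPM with PBS and 6.18, 3.35 and 6.61 CPM with LPS, and embryonic cultures 2.89, 4.02 and 4.63 CPM with PBS and 3.05, 3.17 and 5.08 CPM with LPS. Embryonic means were lower and the groups overlapped (log2 fold change -0.45 ± 0.33 with PBS and -0.51 ± 0.33 with LPS, adjusted p = 0.517 and 0.415). LPS libraries were higher in 4 of 6 cultures, and culture 2 of each stage was lower (82.8% and 78.9% of PBS). Over both stages with culture as a term the LPS difference was -0.02 ± 0.12 (adjusted p = 0.937).

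Chrdl1, chordin-like 1, differed between cultures more than the 6 tested members, with few reads in several libraries. Adult cultures 1 and 3 held 3 to 7 reads per library, and embryonic culture 2 held 8 with PBS and 4 with LPS. Adult cultures 1, 2 and 3 held 0.183, 3.46 and 0.170 CPM with PBS and 0.228, 2.55 and 0.1295 CPM with LPS. Embryonic cultures 1, 2 and 3 held 2.29, 0.244 and 23.8 CPM with PBS and 2.14, 0.138 and 23.8 CPM with LPS. The order of cultures was the same with PBS and LPS in embryonic cells. The highest embryonic PBS library was 97.8 times the lowest, which held 8 reads. In adult cells Chrdl1 was high in culture 2, the culture with 1706 and 1780 CPM of endothelial markers, and in embryonic cells in culture 3, which had the most macrophage markers (1967 and 2529 CPM). The order was not kept elsewhere, since embryonic culture 2 had the lowest embryonic Chrdl1 and more macrophage markers (418 and 957 CPM) than culture 1 (206 and 173 CPM), and adult culture 1 had the most adult macrophage markers (185 and 202 CPM) and low Chrdl1. The part of those cells in Chrdl1 was not tested. The files cannot tell fewer cells of a type from less RNA per cell, here and for every other gene. Fitted without the filter, its stage difference did not pass (2.83 ± 1.94 with PBS, adjusted p = 0.541).

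**Figure D2:**
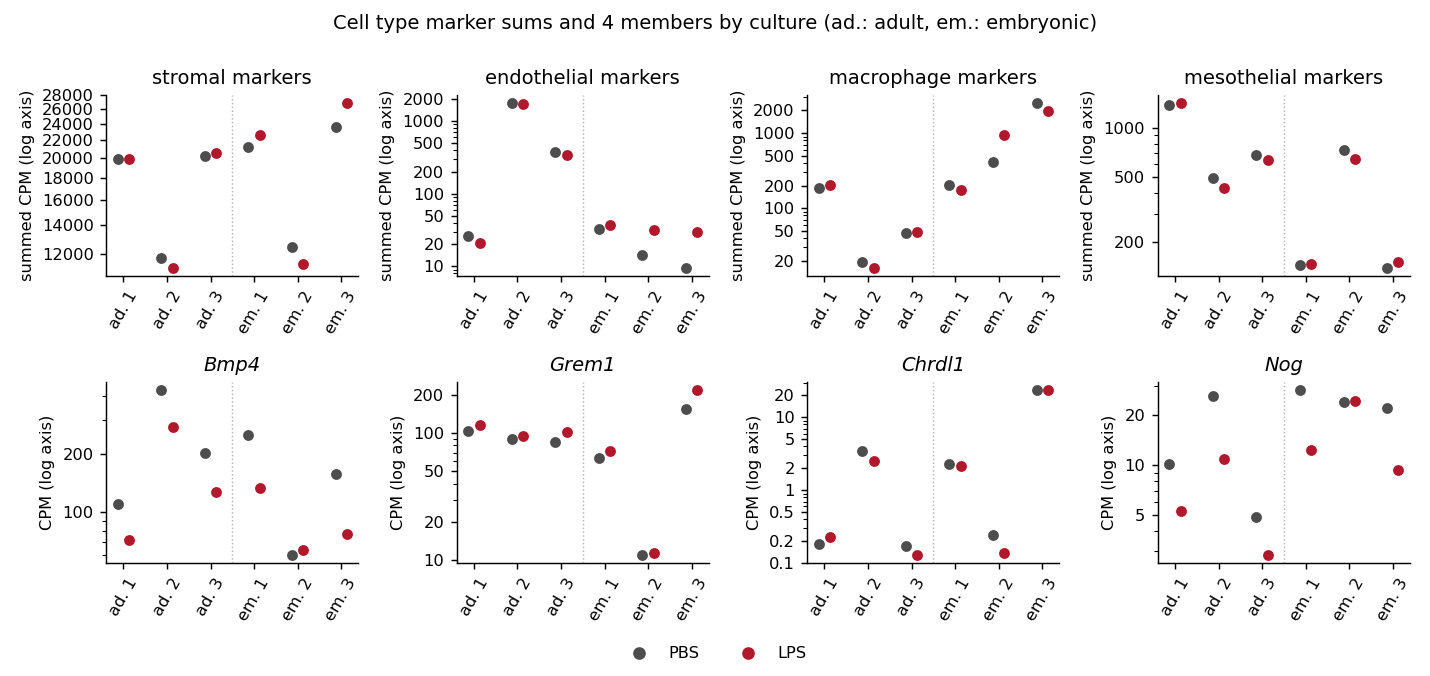
Summed CPM of 4 cell type marker lists (upper panels) and CPM of Bmp4, Grem1, Chrdl1 and Nog (lower panels), on log axes, in the 3 adult and 3 embryonic cultures with PBS (grey) and LPS (red). Adult culture 2 stands out among adult cultures by endothelial markers (1706 and 1780 CPM), Bmp4, Chrdl1 and Nog. Embryonic culture 2 stands out among embryonic cultures by mesothelial markers (649 and 735 CPM), low Grem1, low Chrdl1, low Bmp4 with PBS and high Nog with LPS.

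Bmp4, Nog, Grem1 and Bmp2 varied widely between cultures of the same group. The SD of log2 CPM within groups was 1.45 for Grem1, 0.912 for Bmp4, 0.854 for Nog and 0.740 for Bmp2, at the 97.9th, 89.9th, 88.5th and 84.8th percentile of all tested genes, whose median was 0.281. Chrd (0.406) and Bmp1 (0.385) lay nearer to that median. Bmp4, high in adult culture 2, had the same order as the endothelial markers across adult cultures. Across stages that order was not kept. With PBS, embryonic culture 1 held 253 CPM of Bmp4 and 32.8 CPM of endothelial markers, and adult culture 3 held 202 and 376 CPM. Embryonic culture 2, low in Bmp4 and Grem1, was high in mesothelial markers for its stage and low in stromal markers. That pairing was not kept in adult cells. Adult culture 1 had the most mesothelial markers (1374 and 1423 CPM with PBS and LPS) and the highest adult Grem1 (104 and 116 CPM). Adult culture 2 was also low in stromal markers (11752 and 11133 CPM) and had the highest Bmp4 (430 and 276 CPM). The part of cell makeup in these levels was not tested.

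Counted over the 6 tested members, 0 were called between stages with PBS or with LPS in edgeR at an adjusted p under 0.05, where 4.08% and 5.31% of all tested genes were called. At an unadjusted p under 0.05 there were 0 with PBS and 1 with LPS (Bmp2), where 19.8% and 22% of genes were, and DESeq2 called 0 and 1. With LPS against PBS, 0 members were called in embryonic cells, in adult cells or for the interaction, where 2.75%, 0.606% and 0% of genes were. None had an unadjusted p under 0.05 there, where 10.8%, 5.58% and 2.25% of genes had, and DESeq2 called 0. These comparisons share their PBS or LPS libraries and are not independent of each other.

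With culture as a term the counts of members called were again 0, 0 and 0, where 12.5%, 6.2% and 0.844% of genes were called. At an unadjusted p under 0.05 there were 4 in embryonic cells (Bmp2, Bmp4, Grem1 and Nog), 4 in adult cells (Bmp1, Bmp2, Bmp4 and Nog) and 1 for the interaction (Bmp2), where 27%, 17.9% and 8.92% of genes were. DESeq2 with that term called Bmp4 and Nog in each stage. No share of all genes is given for DESeq2, here or elsewhere, so its counts cannot be set against one. Over both stages with culture as a term 2 of 6 members were called, both lower, where 17.3% of genes were called and 5.97% were lower. Without that term 0 of 6 were called, where 4.19% of genes were.

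**Figure D3:**
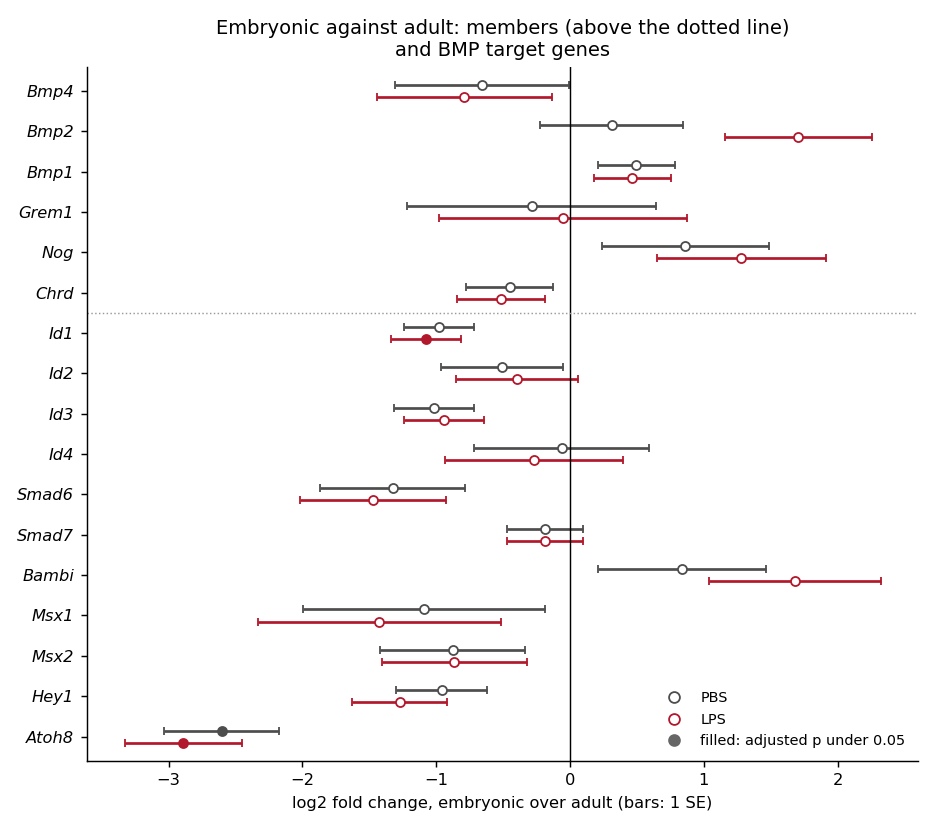
Log2 fold changes of embryonic over adult cells with PBS (grey) and LPS (red) for the 6 tested members and 11 BMP target genes, with bars of 1 SE from edgeR and filled points for an adjusted p under 0.05. No member is filled, and among the targets Atoh8 (both) and Id1 (LPS) are.

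Genes that BMP signalling is known to switch on were then followed as a list of 11: Id1, Id2, Id3 and Id4, inhibitors of helix-loop-helix factors, the inhibitory SMADs Smad6 and Smad7, the pseudoreceptor Bambi, and the transcription factors Msx1, Msx2, Hey1 and Atoh8. Between stages 10 of 11 had a negative log2 fold change, with a median of -0.96 with PBS and -0.94 with LPS, beside medians of 0.02 and 0.02 over all genes. Without the LPS library of adult culture 2, the culture rich in endothelial markers, the median with LPS was -0.55, with 9 of 11 negative. The 5 endothelial markers tested had medians of -5.78 and -5.66 in the same comparisons. With PBS 2 were called lower, and with LPS 1 was called lower and 1 higher. Adult culture 1 held 25.8 and 21.1 CPM of endothelial markers with PBS and LPS. Its 11 target genes summed to 568 and 344 CPM, against 299 to 367 and 207 to 264 CPM in embryonic libraries. The part of endothelial cells in the target genes was not tested. Atoh8 was lower in embryonic cells, at 5.84 ± 0.986 CPM against 35.5 ± 19.8 CPM with PBS (SD, n = 3; log2 fold change -2.60 ± 0.43, adjusted p = 0.0117). With LPS, Atoh8 (-2.89 ± 0.44, adjusted p = 0.00872) and Id1 (-1.07 ± 0.26, adjusted p = 0.0453) were lower, and none was higher with either, where 2.57% of all genes were called lower with PBS and 2.27% with LPS. The Id1 value with PBS was -0.98 ± 0.26 (adjusted p = 0.0649). The Atoh8 call with PBS was lost without the embryonic PBS library of culture 1, when 0 of 11 were called, and that of Id1 with LPS without any 1 of 8 libraries (each of the 6 adult ones and embryonic LPS 1 and 3) and in a fit of the 6 LPS libraries alone. Atoh8 with LPS passed without each of the 12 libraries. DESeq2 called 3 of the 11 lower with PBS (Atoh8, Id1 and Id3) and 4 with LPS (Atoh8, Hey1, Id1 and Id3), and 0 higher.

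With LPS, none of the 11 was called in the fit of the 4 groups (0 also in DESeq2 in each stage). Over both stages, without culture as a term, DESeq2 called Hey1, Id1 and Id4 lower. With culture as a term Id1, Id4, Atoh8 and Smad6 fell in embryonic cells and Id1 and Id4 in adult cells, where 3.12% and 1.51% of all genes were called lower. Without embryonic culture 1 the embryonic count was 0, at a median over the 11 of -0.18 against -0.54 with all cultures, and it was 2 without embryonic culture 3. The adult count was 0 without adult culture 1 or 3, 1 without adult culture 2 and 1 (Id2 alone) without embryonic culture 1, and it was 4 without embryonic culture 2 or 3. Id4 went from 34.7, 5.12 and 26.3 CPM with PBS to 12.4, 3.86 and 5.08 CPM with LPS in embryonic cultures 1, 2 and 3, and from 26.7, 27.1 and 15.3 CPM to 6.83, 13.6 and 5.27 CPM in adult cultures. It was lower in 6 of 6 cultures, least so in embryonic culture 2 (75.5% of PBS), with log2 fold changes of -1.47 ± 0.33 and -1.49 ± 0.32 (adjusted p = 0.0264 and 0.0352).

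Id1 went from 46.5, 59.9 and 42.0 CPM to 23.0, 40.5 and 22.4 CPM with LPS in embryonic cultures and from 120.2, 86.6 and 86.0 CPM to 58.9, 73.1 and 48.8 CPM in adult cultures, lower in 6 of 6. Its LPS effects were -0.83 ± 0.15 and -0.70 ± 0.15 (adjusted p = 0.0112 and 0.0348). Over both stages 6 of the 11 fell and 0 rose, where 5.97% of all genes were called lower: Id4 by 1.48 ± 0.23 on the log2 scale, Smad6 by 0.80 ± 0.14, Hey1 by 0.80 ± 0.21, Id1 by 0.76 ± 0.11, Atoh8 by 0.76 ± 0.12 and Id3 by 0.46 ± 0.13. The median over the 11 was -0.58, beside 0.00 over all genes, and 4 to 7 were called, all lower, when each culture was left out in turn. Id1, Id4, Atoh8 and Smad6 passed in all 6 fits that left out a culture, Id3 in 3 and Hey1 in 1. Without embryonic culture 1 the median was -0.37. Msx1 and Msx2 were higher with LPS in 3 and 4 of 6 cultures and were not called.

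The window of Id4 is shown because Id4 had the largest fall over both stages among the 11. It is chr13:48260866-48261115 of GRCm38.p6, plus strand, from RefSeq, with the same marks as above.
Id4: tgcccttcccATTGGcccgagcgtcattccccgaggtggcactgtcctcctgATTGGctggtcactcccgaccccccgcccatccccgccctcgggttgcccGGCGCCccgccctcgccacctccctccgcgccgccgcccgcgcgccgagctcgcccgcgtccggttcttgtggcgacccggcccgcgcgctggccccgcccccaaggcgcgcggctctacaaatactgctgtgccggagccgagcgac
It was 75.6% G and C and held the SMAD palindrome 148 bases before the start. The CCAAT box lay on the other strand (ATTGG) 240 and 198 bases before the start. For Id4 and Grem1 the bases after the RefSeq start were not found near the start of any transcript in GENCODE, another gene annotation. Among the others of the 11, the windows of Id3, Smad6 and Atoh8 held no match to any of the 3.

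**Figure D4:**
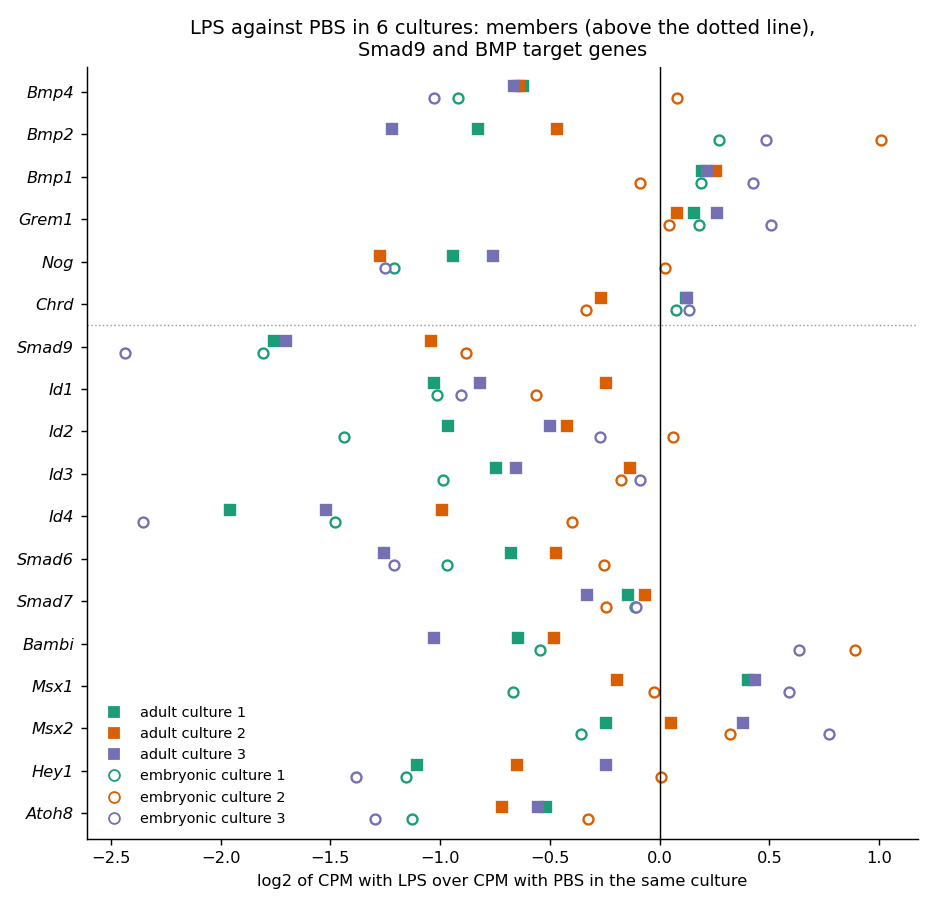
Log2 ratio of CPM with LPS to CPM with PBS within each culture (squares adult, circles embryonic, colours culture numbers) for the 6 tested members, Smad9 and the 11 BMP target genes. Smad9, Id1, Id3, Id4, Smad6, Smad7 and Atoh8 lie left of 0 in all 6 cultures, and Bmp4 and Nog in all but embryonic culture 2, which lies near 0.

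Further lists of the pathway were counted in the same fits. Smad6, Smad7 and Bambi, already counted among the target genes, belong to these lists too. Among 8 SMAD and SMURF genes, Smad9, which encodes a BMP receptor SMAD, fell with LPS in both stages with culture as a term (-1.71 ± 0.30 in embryonic and -1.49 ± 0.27 in adult cells, adjusted p = 0.00869 and 0.0196). It held 5.93, 5.79 and 9.14 CPM with PBS and 1.65, 3.11 and 1.63 CPM with LPS in embryonic cultures 1, 2 and 3, and 10.4, 26.1 and 11.4 CPM against 3.03, 12.6 and 3.45 CPM in adult cultures. The ubiquitin ligase Smurf2 was lower in embryonic cells with PBS and with LPS (-0.71 ± 0.16 and -0.66 ± 0.16, adjusted p = 0.0429 and 0.0474), and these calls held in 3 and 4 of the 12 fits that left out 1 library. Over both stages 1 of the 8 rose (Smurf1, 0.33 ± 0.09, adjusted p = 0.0357) and 2 fell (Smad6 and Smad9). Smad9 passed over both stages and in embryonic cells without each culture in turn, and in adult cells it was lost without adult culture 1 or 3. The Smurf1 call held in 2 of the 6 fits that left out a culture.

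Of 12 receptors and co-receptors 11 were tested, and 0 were called between stages. Over both stages with LPS and culture as a term the type I receptor Bmpr1a fell by 0.28 ± 0.06 on the log2 scale (adjusted p = 0.0144), the type II receptor Acvr2a fell by 0.26 ± 0.07 (adjusted p = 0.0455), and Acvrl1, a type I receptor known from endothelium, rose by 0.33 ± 0.09 (adjusted p = 0.0408). With each of the 6 cultures left out in turn, Bmpr1a passed in 5 fits, Acvr2a in 1 and Acvrl1 in 2. Of 15 other extracellular regulators 10 were tested. Crim1, a transmembrane BMP binder, was lower in embryonic cells with PBS (594 ± 88.2 against 919.9 ± 118 CPM, SD, n = 3; -0.63 ± 0.15, adjusted p = 0.0438), a call that held in 2 of the 12 fits that left out 1 library. With LPS over both stages and culture as a term 1 of the 10 rose and 2 fell. Fst fell by 0.26 ± 0.06 and Twsg1 rose by 0.18 ± 0.05 (adjusted p = 0.0243 and 0.0376), and they passed in 4 and 1 of the 6 fits without a culture. Of 11 other BMP and GDF ligands 5 were tested, and 0 were called between stages. Bmp6, the ligand with the largest difference there, stood at 14.7 ± 11.98 CPM in embryonic and 86.4 ± 44.4 CPM in adult PBS libraries (-2.55 ± 0.66, adjusted p = 0.0605). With culture as a term Bmp3 rose with LPS in embryonic cells (1.19 ± 0.28, adjusted p = 0.0287) and Gdf6 fell over both stages by 0.42 ± 0.10 (adjusted p = 0.0204), and they passed in 2 and 3 of the 6 fits without a culture. Tll1, Tll2, Pcolce and Pcolce2, relatives and enhancers of Bmp1, gave 3 tested genes and 0 calls.

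Over the 12 libraries, whose cultures and depth the points share, the genes with the pattern most like each member were named by Pearson's correlation of log2 CPM, as a description. Grem1 was followed most closely by Htra3 (r = 0.986), a secreted protease, Ltbp4 (r = 0.975) and Vwa1 (r = 0.972), Bmp4 by Card10 (r = 0.957), Ckap2 and Ankrd26, and Bmp1 by Lepre1 (r = 0.965), a collagen prolyl hydroxylase. Bmp2 was nearest to Eppk1 (r = 0.944), Nog to Glyr1 (r = 0.952) and Chrd to Atf5 (r = 0.962). Among the members themselves Bmp1 with Bmp2 had the highest r (0.631) and Nog with Chrd the lowest (-0.763), and Bmp4 with Nog had an r of 0.15.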

How the data were processed

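Stage, treatment and replicate number came from the sample labels. Per the labels and the study's methods, the authors made stranded polyA libraries, mapped reads with STAR to mm10 (GRCm38) and deposited raw read counts per gene, 1 table per library with counts on either strand and on each strand. The column on the library's strand was used, and the opposite strand held 1.14% to 1.98% of the counts of both strand columns together. Between 17.4% and 19.9% of reads were assigned to no gene and were left out. CPM values were computed here with TMM factors of 0.899 to 1.10, and log2 CPM with a prior count of 2.

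Genes above 0.5 CPM in all libraries of a group were tested with edgeR 4.0.16 (quasi-likelihood test, R 4.3.3, Benjamini-Hochberg adjustment over all tested genes) in 1 fit of 12 libraries, and ± in a log2 fold change is its SE. DESeq2 1.42.0, other scalings and filters, and leaving out libraries or cultures were the alternatives. Libraries of the same number within a stage deviated from their group means together (r = 0.610 to 0.850 in all 6 pairs), so culture was added as a term, and across stages they did not (r = -0.31 to -0.0022). The main tests between stages held no such term. They treated 12 libraries of 6 cultures as independent, so their p-values ignored the pairing. Replicates of a group differed beyond counting error (chi-square per gene 31.6 to 278). A level was taken as at the floor up to 3 reads per library, which covers counting error only.

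Genes, lists and promoters were chosen with earlier results of these data known. Named were all 9 members, from each pathway list and comparison up to 3 called genes with the largest log2 fold change, up to 3 genes nearest to a tested member and the 5 genes of the LPS check. Further called genes, Bmp6, Msx1, Msx2 and the promoters were chosen after their values were seen, as was the comparison over both stages. A result for 1 further listed gene is not reported here. Sequences and coordinates are RefSeq's for GRCm38.p6. Matplotlib 3.10.9 drew the figures.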

Additional observations from a re-analysis of the deposited data

Results flagged for a closer look

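Bmp2 is singled out because every embryonic culture lay on one side of its PBS level with LPS and every adult culture on the other. In the fit with culture as a term the interaction of stage and LPS was 1.44 ± 0.31 on the log2 scale (edgeR, unadjusted p = 0.00173, adjusted p = 0.124), so it did not pass after adjustment over all genes. LPS libraries held more Bmp2 than PBS libraries in 3 of 3 embryonic cultures and less in 3 of 3 adult cultures. Over all alternatives the interaction lay between 0.99 and 1.71, with adjusted p from 0.0501 to 1.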

How the results depend on the processing

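All 6 counts of members called were 0 in the main fit, so none could fall. Of 203 repeats under the alternatives, 20 gave a higher count. Between stages with LPS the count was 1 (Bmp2) in DESeq2, without the PBS library of embryonic culture 2, and without both libraries of that culture. The range was 0 to 1 when libraries or cultures were left out without a block. The count was also 1 (Bmp2) with a replicate block across stages, which joins cultures by number although these did not vary together across stages. With the replicate block (culture as a term) it was 2 over both stages (Bmp4 and Nog), and 0 in each stage and for the interaction, and this fit changed no other call of a member. The replicate block with DESeq2 gave 2 in embryonic cells, 2 in adult cells and 2 over both stages. With the block and RLE size factors it gave 2 over both stages, and with library totals only 2 in embryonic cells and 2 over both. With the block and 1 culture left out, the counts over both stages were 1 without adult culture 1 (Nog), 2 without adult culture 2 or 3, 1 without embryonic culture 1 (Nog), 4 without embryonic culture 2 and 2 without embryonic culture 3. In adult cells they were 3 without embryonic culture 2 and 2 without embryonic culture 3, and in embryonic cells 3 without embryonic culture 2. The fits that combine the block with another choice, those that leave out both libraries of a culture and the comparison over both stages were chosen after the data were seen. The cause of these changes was not tested.

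Over all alternatives, 82 log2 fold changes of single members had the other sign, none of these past the threshold (smallest adjusted p 0.565), and the cause was not tested. Left out 1 at a time, the values between stages with LPS ran from Grem1 -1.33 to 0.48. Those with LPS in adult cells ran from Chrd -0.14 to 0.28 and Bmp4 -1.32 to 0.021. Those for the interaction ran from Bmp1 -0.31 to 0.23, Chrd -0.35 to 0.11, Bmp4 -0.80 to 0.54, Nog -0.45 to 1.06 and Grem1 -1.03 to 1.26. Those with LPS over both stages ran from Chrd -0.16 to 0.12 and Grem1 -0.36 to 0.80. Those between stages with PBS ran from Bmp4 -1.19 to 0.0086 and Grem1 -1.32 to 0.22. Those with LPS in embryonic cells ran from Bmp1 -0.093 to 0.44, Chrd -0.33 to 0.13 and Grem1 -0.87 to 1.43. Chrd with LPS in adult cells (-0.023) had the other sign with library totals only. Bmp4 for the interaction (0.013) had the other sign under the replicate block. In DESeq2 with the replicate block Chrd with LPS in adult cells (-0.011) and Bmp4 for the interaction (0.013) had the other sign. Chrd with LPS in adult cells (-0.065), Bmp4 for the interaction (0.024) and Chrd for the interaction (0.024) had the other sign under the replicate block without adult replicate 1. Bmp4 for the interaction (0.0063) and Chrd with LPS over both stages (0.028) had the other sign under the replicate block without adult replicate 2. Chrd with LPS in adult cells (-0.077) and Chrd for the interaction (0.0039) had the other sign under the replicate block without adult replicate 3. Bmp4 for the interaction (0.17) had the other sign under the replicate block without embryonic replicate 1. Chrd with LPS in embryonic cells (0.11), Nog for the interaction (-0.20), Bmp1 for the interaction (0.087), Chrd for the interaction (0.10) and Chrd with LPS over both stages (0.055) had the other sign under the replicate block without embryonic replicate 2. Bmp4 for the interaction (0.19) and Grem1 for the interaction (-0.065) had the other sign under the replicate block without embryonic replicate 3. Bmp4 for the interaction (0.012) and Chrd with LPS in adult cells (-0.0096) had the other sign under the replicate block with RLE size factors. Chrd with LPS in adult cells (-0.043) and Grem1 for the interaction (-0.0067) had the other sign under the replicate block with library totals only.

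The tests rest on 3 cultures per group and on genes whose cultures differed widely, so a p that misses the threshold does not show that levels were alike. The common biological coefficient of variation was 0.340 and 0.126 with culture as a term. Bmp5 and Bmp7 were limited by depth, with 0 to 9 reads per library. Promoter windows cover 4 of 9 members.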
